A study of Sus scrofa with 6 samples.

Results

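The small heat shock protein genes of muscle were followed in longissimus thoracis (LT) and semitendinosus (ST) of Min pigs, a local breed of northern China. The genes were chosen by name from a list of 7, namely HSPB1, HSPB2, HSPB3, HSPB6, HSPB7, HSPB8 and CRYAB, by their Ensembl symbol on Sscrofa11.1. Of these, 6 were present among the 36050 gene IDs of the files, and all 6 were expressed above the level needed for testing. HSPB2 has no Ensembl gene under that symbol and was left out. RefSeq places it on chromosome 9 from 39640117 to 39644104 on the same assembly, overlapping CRYAB.

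LT and ST were taken from 3 pigs of the same age, labelled as wild type and with no treatment named, which gave 6 libraries, 3 per muscle. Both are skeletal muscles, the first of the back and the second of the hind limb. LT and ST libraries with the same number were read as coming from the same pig. Each library held a piece of whole muscle with its vessels, nerves, connective tissue and fat. The study compared the muscles because they differ in meat quality and intramuscular fat.

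Small heat shock proteins are chaperones that work without ATP. They bind unfolding proteins and keep them from aggregating until the ATP-driven HSP70 machinery can refold them or hand them over for degradation. They share a conserved alpha-crystallin domain and form oligomers, often of more than 1 family member. Skeletal and cardiac muscle hold them at high levels, where they bind to desmin, actin, filamin and titin at the Z-disc and I-band and protect the contractile apparatus during stretch and stress. Mutations of CRYAB cause desmin-related myopathy, and mutations of HSPB1, HSPB3 and HSPB8 cause motor neuropathies or myopathies.

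The authors gave levels in FPKM, fragments per kilobase of transcript scaled to the mapped fragments of the library, which allows levels to be compared between genes per length. The transcripts of a gene were added up, and limma compared the muscles on log2(FPKM + 0.1) for 19680 genes with FPKM above 0.1 in at least 1 library. A gene was called when its adjusted p was under 0.05 and its absolute log2 fold change above 1. Of the genes tested, 114 (0.579%) were called, 81 (0.412%) higher and 33 (0.168%) lower in ST. With the pig as a block, 839 genes (4.26%) were called, of which 581 (2.95%) had the higher level in ST and 258 (1.31%) in LT. The median log2 fold change over all genes tested was 0.13, and it was -0.01 after quantile normalization and 0.22 when FPKM was rescaled to nuclear transcripts, a shift against which the fold changes of single genes were read.

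One library stood apart within its muscle. The 6 slow fibre markers found in the files of the 8 listed (MYL2, MYL3, TNNC1, TNNI1, TNNT1 and ATP2A2, without MYH7) summed to 36955 FPKM in ST of pig 1 and 37224.5 in ST of pig 3, but to 5987 in ST of pig 2, within the range of LT from 4457 to 6802. That holds for the sum. Taken singly, MYL2, TNNC1 and TNNI1 of ST of pig 2 lay within the LT range. MYL3 (465 FPKM), TNNT1 (382) and ATP2A2 (317) lay above every LT library, where the highest values were 293, 348 and 252. The 7 fast fibre markers found of 11 listed summed to 21202 FPKM in ST of pig 2, against 5520 and 1601 in the other ST libraries and from 23379 to 32162 in LT. None of these markers was listed at 0 in any library. Mitochondrial transcripts held 5.36 to 8.16% of all FPKM per LT library and 12.1 to 15.4% per ST library. Values of the 6 genes are also given without ST replicate 2. Whether the fibre make-up had a part in them was not tested, and in whole muscle a smaller number of fibres of 1 type cannot be told apart from less RNA per fibre.

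None of the 6 small heat shock protein genes was called in the comparison without the block, by limma. An unadjusted p under 0.05 with a higher level in ST was found for 4 of them (HSPB6, HSPB7, CRYAB and HSPB3) and for 2582 (13.1%) of all genes tested. A log2 fold change above 1 was met as well by 3 of these (HSPB6, HSPB7 and CRYAB) and by 913 (4.64%) of all genes. With the pig as a block, 2 of the 6 were called, HSPB6 and HSPB7, both higher in ST, as were 581 (2.95%) of all genes tested. The median log2 fold change of the 6 genes was 0.99. The level was higher in ST in all 3 pigs for 3 of the 6 genes, as it was for 6318 (32.1%) of all genes tested.

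**Figure D1:**
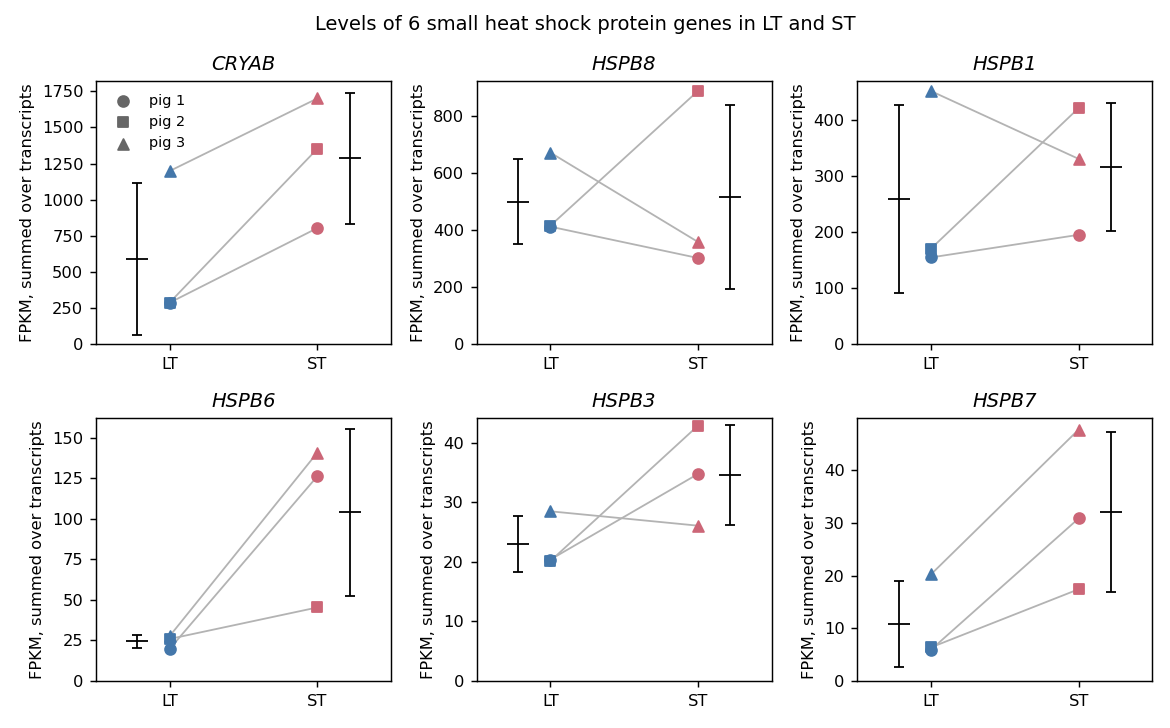
FPKM summed over transcripts (vertical axes, from 0) of each small heat shock protein gene in LT (blue) and ST (red). Symbols mark the 3 pigs, grey lines join LT and ST of 1 pig, and black bars give the mean and SD over 3 libraries. HSPB6, HSPB7 and CRYAB were higher in ST in all 3 pigs, whereas the lines of HSPB8, HSPB1 and HSPB3 run in both directions.

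HSPB6, also named Hsp20, is a small heat shock protein of skeletal, cardiac and smooth muscle that is phosphorylated by cyclic nucleotide-dependent kinases. It lies on chromosome 6 from 45181443 to 45183998 on the minus strand, as ENSSSCG00000023498. Its FPKM was 19.8, 25.9 and 27.7 in LT of pigs 1, 2 and 3, and 126, 45.3 and 141 in ST. All ST values lay above all LT values, with ST of pig 2 nearest to LT. It was the only one of the 6 genes whose muscles did not overlap, a pattern that 3282 (16.7%) of all genes tested showed in this direction.

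The mean of HSPB6 over the LT libraries was 24.5 ± 4.14 (SD, n = 3) against 104 ± 51.4 (SD, n = 3) over the ST libraries, which made the log2 fold change 1.94 (standard error 0.41, 95% interval from 0.99 to 2.88), or 3.83-fold on the FPKM + 0.1 scale. The adjusted p was 0.0726 from limma without the block and 0.0328 from limma with it, and it lay between 0.00253 and 0.225 over the alternatives. Relative to the median of all genes the difference was 1.81. Without ST replicate 2 the log2 fold change was 2.46 (limma, adjusted p = 0.00253). A 2-sided exact permutation test gave p = 0.1, the smallest that 3 against 3 libraries allow.

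HSPB7, or cvHsp, is found almost wholly in heart and skeletal muscle and binds filamin C. The files list it as ENSSSCG00000041935 on chromosome 6 from 75166990 to 75174893, with a single transcript of 5775 bases whose type is lncRNA, although RefSeq holds HSPB7 as a protein-coding gene from 75171507 to 75174918. Its level per length therefore depends on a transcript model longer than the RefSeq gene. HSPB7 had FPKM of 5.94, 6.37 and 20.2 in LT against 30.9, 17.4 and 47.7 in ST. LT of pig 3 stood above ST of pig 2, so the muscles overlapped, but ST was the higher muscle within each pig.

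The mean of HSPB7 over the LT libraries was 10.9 ± 8.14 (SD, n = 3) against 32.0 ± 15.2 (SD, n = 3) over the ST libraries, which made the log2 fold change 1.68 (standard error 0.52 without and 0.24 with the pig block). Its adjusted p was 0.145 from limma without the block and 0.0240 from limma with it. Within pigs the differences on the log2 scale were 2.36, 1.44 and 1.23, the most even among the 3 genes that were higher in ST in each pig. Without ST replicate 2 it was 2.05 (limma, adjusted p = 0.0650), and without LT replicate 3 it was 2.24 (limma, adjusted p = 0.125).

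CRYAB, alpha-B-crystallin, is a chaperone of desmin and titin and had the highest mean FPKM of the 6 genes in both muscles, although HSPB8 was above it in LT of pigs 1 and 2. It lies on chromosome 9 from 39638502 to 39643530 on the minus strand, as ENSSSCG00000036724. FPKM was 287.5, 289 and 1198 in LT against 803, 1352 and 1700 in ST. LT of pig 3 was more than 4 times as high as the other LT libraries and overlapped ST. The mean over the LT libraries was 591 ± 526 (SD, n = 3) against 1285 ± 452 (SD, n = 3) over the ST libraries, which made the log2 fold change 1.40 (standard error 0.58, 95% interval from 0.07 to 2.74).

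The adjusted p of CRYAB was 0.239 from limma without the block and 0.0672 from limma with it. Within pigs the differences on the log2 scale were 1.48, 2.23 and 0.50, the smallest of them in the pig whose LT level was high. Without LT replicate 3 the log2 fold change was 2.09 (limma, adjusted p = 0.125), and without ST replicate 2 it was 1.33 (limma, adjusted p = 0.265). By mean FPKM over the genes tested, CRYAB ranked 73 in LT and 36 in ST.

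HSPB3, which forms hetero-oligomers with HSPB2 in muscle, is listed with 1 exon on chromosome 16 from 33716626 to 33719018, a model of 2393 bases, whereas RefSeq gives 945 bases from 33716458 to 33717402. Its level per length, like that of HSPB7, depends on the model. Its FPKM was 20.4, 20.1 and 28.5 in LT against 34.7, 42.8 and 26.1 in ST. ST was higher in pigs 1 and 2 and lower in pig 3. The mean over the LT libraries was 23.0 ± 4.75 (SD, n = 3) against 34.5 ± 8.39 (SD, n = 3) over the ST libraries, which made the log2 fold change 0.58 (standard error 0.24, limma, adjusted p = 0.242, with the block 0.206). Without ST replicate 2 it was 0.41 (limma, adjusted p = 0.339).

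HSPB1, known as Hsp27, binds actin filaments and guards them and the desmin network under stress. It lies on chromosome 3 from 10037936 to 10039915. Its FPKM was 155, 170 and 451 in LT against 195, 421 and 330 in ST. The highest of all 6 libraries was LT of pig 3, and pig 3 was the 1 pig in which LT exceeded ST. The means were 259 ± 167 (SD, n = 3) and 315 ± 114 (SD, n = 3). The log2 fold change was 0.40 with a 95% interval from -0.66 to 1.45 (limma, adjusted p = 0.681), so a difference in either direction could not be resolved with these libraries. Without ST replicate 2 the value was 0.15 (limma, adjusted p = 0.881).

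HSPB8, or Hsp22, works with the co-chaperone BAG3 in the selective autophagy of damaged filamin at the Z-disc. It lies on chromosome 14 from 33626128 to 33640792. FPKM was 411, 415 and 671 in LT against 302, 887 and 358 in ST. ST was higher in pig 2 alone, and the ST libraries spread on both sides of LT. The means were 499 ± 149 (SD, n = 3) and 515 ± 323 (SD, n = 3), a log2 fold change of -0.09 (95% interval from -1.08 to 0.90, limma, adjusted p = 0.937). The sign turned, to 0.03 when FPKM was rescaled to nuclear transcripts and to 0.15 without LT replicate 3. Without ST replicate 2 it was -0.56 (limma, adjusted p = 0.256).

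**Figure D2:**
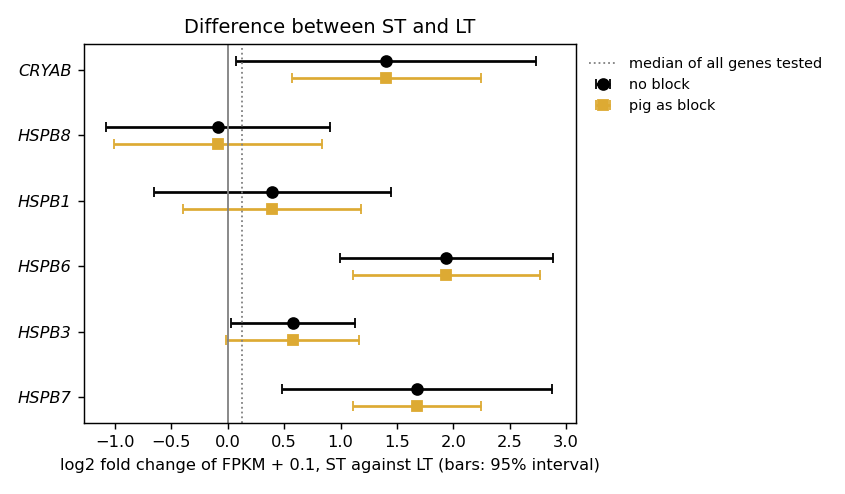
Log2 fold change of FPKM + 0.1 between ST and LT for each gene, without a block (black circles) and with the pig as a block (yellow squares), with 95% intervals from limma. The dotted line is the median of all genes tested, at 0.13. The intervals of HSPB6, HSPB7 and CRYAB lie above 0 in both fits, and those of HSPB1 and HSPB8 span 0. That of HSPB3 lies above 0 without the block (0.03 to 1.13) and spans 0 with it (-0.01 to 1.16).

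Levels per length were then set in order. In LT the mean FPKM ran from high to low as CRYAB, HSPB8, HSPB1, HSPB6, HSPB3 and HSPB7. The means of ST had the same order. In LT, CRYAB was above HSPB8 in 1 of 3 libraries only, and its first place in the mean rested on pig 3. In ST it was above HSPB8 in all 3. HSPB8 was above HSPB1 in all 6 libraries, although their ranges overlapped in both muscles. The step from HSPB1 to HSPB6 separated the 3 abundant genes from the others with no overlap in either muscle. HSPB6 and HSPB3 could not be ordered in LT, where HSPB6 was above HSPB3 in 1 of 3 libraries, but HSPB6 was above HSPB3 in all 3 ST libraries with no overlap. HSPB3 and HSPB7 overlapped in both muscles. The places of HSPB3 and HSPB7 rest on transcript models that differ in length from the RefSeq genes.

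The 6 genes together had a summed FPKM of 900, 926 and 2396 in LT against 1492, 2765 and 2603 in ST. CRYAB made up 32.0, 31.2 and 50.01% of that sum in LT against 53.9, 48.9 and 65.3% in ST. The share of HSPB8 was 45.7, 44.8 and 28.0% in LT against 20.2, 32.1 and 13.8% in ST. The share of HSPB1 lay between 17.2 and 18.8% in LT and between 12.7 and 15.2% in ST, so every LT library was above every ST library. Shares of a sum are tied to each other, and a lower share is not a lower level. The FPKM of HSPB1 itself overlapped between the muscles, with means of 259 in LT and 315 in ST. The share of HSPB6 was 2.20, 2.80 and 1.15% in LT against 8.46, 1.64 and 5.41% in ST, so ST of pig 2 had a share within the range of LT.

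Ratios inside a library do not depend on how libraries are scaled. The ratio of HSPB6 to HSPB8 was 0.0481, 0.0624 and 0.0413 in LT against 0.418, 0.0511 and 0.393 in ST. Here ST of pig 2 fell among the LT libraries, while the other ST libraries stood far above them. The ratio of CRYAB to HSPB8 was 0.699, 0.695 and 1.79 in LT against 2.66, 1.52 and 4.75 in ST. For this ratio LT of pig 3 stood above ST of pig 2.

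**Figure D3:**
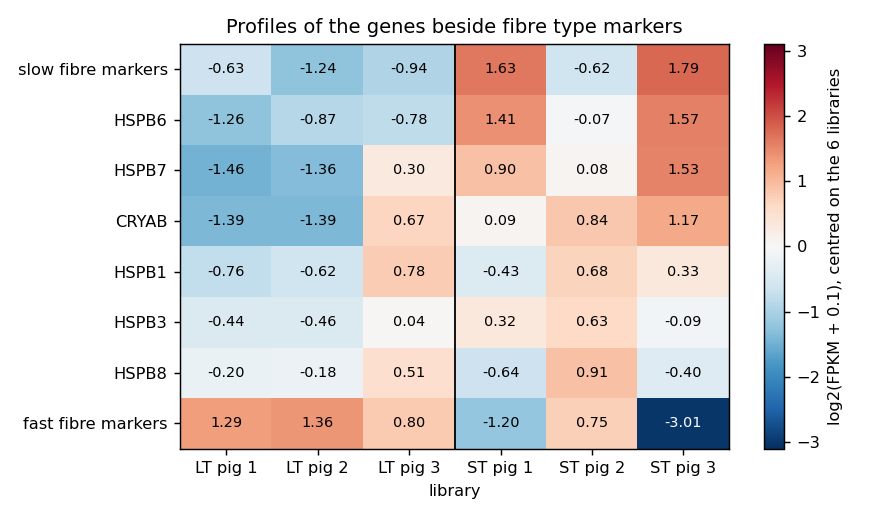
Log2(FPKM + 0.1) of each gene in each library after its mean over the 6 libraries was subtracted (colour and printed value), beside the mean of the same quantity over 6 slow and 7 fast fibre markers. HSPB6, HSPB7 and the slow markers are highest in ST of pigs 1 and 3, with 1.41 and 1.57 for HSPB6 and 0.90 and 1.53 for HSPB7. HSPB8 is highest in ST of pig 2 at 0.91.

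The profiles over the 6 libraries were compared by the mean absolute difference of centred log2 values, as a description, since libraries of a muscle and of a pig are shared. HSPB6 was nearest to HSPB7 (0.41), and HSPB7 to CRYAB (0.40). HSPB1 and HSPB8 were nearest to each other (0.41). HSPB3 was nearest to HSPB1 (0.41). The most distant pair was HSPB6 and HSPB8 (1.34). In ST of pig 2, HSPB8 and HSPB3 had their highest level of the 6 libraries, and HSPB6 and HSPB7 their lowest level of ST.

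LT of pig 3 had the highest LT level for all 6 genes. It was at least 1.5 times as high as each other LT library for 4 of them, CRYAB, HSPB8, HSPB1 and HSPB7, a pattern picked out after the values were seen. Over all genes tested, 9233 (46.9%) were highest in that LT library and 2108 (10.7%) exceeded both others by 1.5 times.

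Among 3387 other genes with a mean FPKM of at least 10, the 5 whose profile lay nearest to that of CRYAB were CEBPD, NRAP, RNF115, BTNL9 and DNAJA4, at mean absolute differences from 0.30 to 0.34. NRAP, a protein of the myotendinous junction and of growing myofibrils, had FPKM of 46.0, 44.4 and 111 in LT against 130, 173 and 157 in ST. DNAJA4, a J-domain co-chaperone of HSP70, had 3.87, 9.88 and 19.8 in LT against 13.1, 24.5 and 36.6 in ST. Since the genes were chosen by their likeness to CRYAB, shared features of these profiles follow from the choice.

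The files list 11 transcripts for the 6 genes, all of them annotated in Ensembl, and all 11 passed the filter. None was called in the limma fit over 52102 transcripts, of which 76 (0.146%) were called. CRYAB was carried by ENSSSCT00000059078, a transcript of 5 exons and 1140 bases, which made up 53.4, 80.0 and 99.9% of the gene in LT against 94.5, 88.6 and 85.0% in ST. The shorter ENSSSCT00000056695, of 4 exons and 842 bases, had FPKM of 134, 57.4 and 0 in LT against 44.5, 155 and 255 in ST. Its share of CRYAB thus ranged from 0 to 46.6% inside LT alone, and the sum of the transcripts varied less between LT of pigs 1 and 2 than either transcript did. ENSSSCT00000059359 stayed at or below 0.760 FPKM.

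The transcripts of HSPB6 and HSPB8 kept steady shares. ENSSSCT00000025250 and ENSSSCT00000038332 of HSPB6 had log2 fold changes of 1.93 and 1.93, and the first made up between 48.9 and 56.8% of the gene in every library. In HSPB8, ENSSSCT00000010790 made up between 57.1 and 63.6% of the gene. HSPB1 consisted of ENSSSCT00000008434 alone in 5 libraries. In ST of pig 3 the second transcript, ENSSSCT00000008435, had an FPKM of 76.7 and made up 23.2% of the gene, and it was listed at 0 elsewhere.

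**Figure D4:**
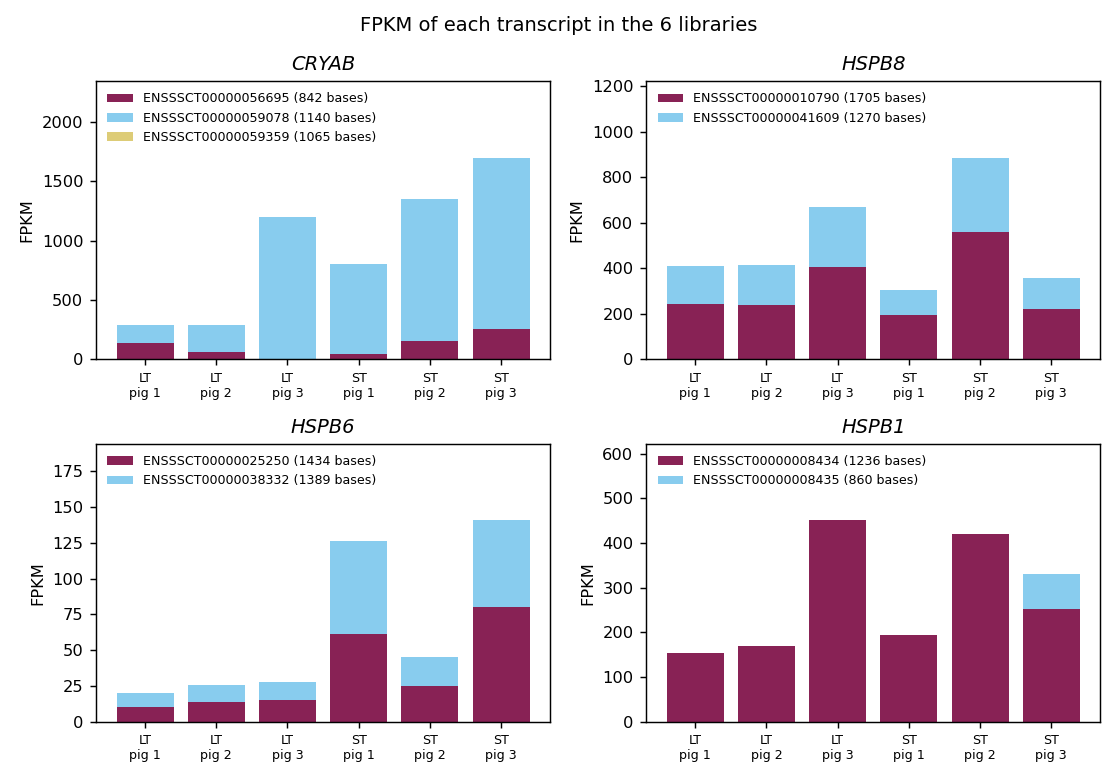
FPKM of each transcript (stacked bars, vertical axes from 0) of CRYAB, HSPB8, HSPB6 and HSPB1 in the 6 libraries. The shares of the transcripts are steady for HSPB8 and HSPB6. For CRYAB the 842 base transcript varies from 0 in LT of pig 3 to 255 FPKM in ST of pig 3, and a second HSPB1 transcript appears in ST of pig 3 alone.

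Transcripts on the other strand overlapped 5 of the 6 genes. The library kit keeps the strand, but whether strand was used in quantification is not given in the sources used here, so reads of overlapping genes may not be told apart. Over HSPB1, ENSSSCT00000060679, a transcript of 459 bases with no symbol, had FPKM of 30.7, 28.6 and 82.8 in LT against 28.2, 63.3 and 44.3 in ST, which is 13.4 to 19.8% of HSPB1. LNC_003327, an unannotated lncRNA over HSPB8, had between 1.77 and 2.66% of the FPKM of HSPB8. The transcript opposite HSPB7 had between 5.49 and 10.03% of its FPKM, and that opposite HSPB3 between 1.77 and 5.65%. The gene ENSSSCG00000015027 opposite CRYAB, which covers the RefSeq position of HSPB2, had 4.63 to 26.2 FPKM over its 6 overlapping transcripts, at most 2.60% of CRYAB.

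The wider chaperone network was described with lists that hold 80 genes beside the 7 listed small heat shock protein genes, of which 68 were tested. Their median log2 fold change was 0.14. These lists, named chaperone lists here, also hold 7 tested filament and Z-disc genes, which are not chaperones. Of the 68, ACTN2 was the 1 gene called without the block, against 114 (0.579%) of the 19680 genes tested. With the block 6 of the 68 were called, 5 higher and 1 lower in ST, against 839 (4.26%) of the 19680. ACTN2 and MYOT, both of the filament and Z-disc list, were among the 6. Unadjusted, a p under 0.05 with a higher level in ST was found for 13 of the 68, 4 of them filament and Z-disc genes, and for 2582 (13.1%) of the 19680. With a lower level it was found for 1 of the 68 and for 1158 (5.88%) of the 19680. Of the other small heat shock protein genes, HSPB9 reached 0.0350 FPKM and ODF1 was listed at 0 in all libraries, and neither was tested. CRYAA and HSPB11 have no gene under these symbols in the files.

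HSP70 chaperones fold proteins with ATP and take over clients from the small heat shock proteins. Of 13 tested, none was called without the block and HSPA12B was called with it (log2 fold change 1.21, limma, adjusted p = 0.0730, with the block 0.0254). HSPA13 stood at a log2 fold change of 0.61 (limma, adjusted p = 0.146). J-domain proteins deliver clients to HSP70. Of 16 tested, none was called without the block and 3 were called with it, DNAJB9 and DNAJA4 higher and DNAJB1 lower in ST. DNAJB9, a co-chaperone of the endoplasmic reticulum, had FPKM of 3.32, 3.46 and 4.14 in LT against 17.7, 7.25 and 21.5 in ST (limma, adjusted p = 0.0656, with the block 0.0253). DNAJB5 stood at a log2 fold change of 1.02 (limma, adjusted p = 0.0870).

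HSP90 and its co-chaperones finish the folding of kinases, receptors and myosin. None of 13 was called in either fit. CHORDC1 stood at a log2 fold change of 0.90 (limma, adjusted p = 0.0870) and TRAP1, the mitochondrial HSP90, of 0.58 (limma, adjusted p = 0.129). None of 9 chaperonin subunits was called in either fit, with log2 fold changes of 0.54 for HSPD1 and 0.30 for CCT8. Of the heat shock transcription factors, which drive the inducible chaperone genes, none of 3 was called in either fit. HSF2 stood at a log2 fold change of 0.73 (limma, adjusted p = 0.123) and HSF1 of -0.18 (limma, adjusted p = 0.779).

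BAG3 and its partners link HSPB8 to autophagy of filamin. None of 7 was called in either fit. SYNPO2 had a log2 fold change of 0.55 and FLNC, the muscle filamin, of 0.79 (limma, adjusted p = 0.179 and 0.300). BAG3 itself had FPKM of 9.65, 17.5 and 17.8 in LT against 12.2, 32.1 and 14.9 in ST, with its highest value in the library where HSPB8 was highest. FLNC was also highest in that library, but all other genes of the list were highest elsewhere. A link between BAG3 and HSPB8 levels was not tested.

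Filament and Z-disc proteins are the structures that small heat shock proteins protect. Of 7 tested, ACTN2, a Z-disc alpha-actinin, had a mean of 69.1 ± 14.9 (SD, n = 3) for LT against 278 ± 93.4 (SD, n = 3) for ST. Its log2 fold change was 1.96 (limma, adjusted p = 0.0424, alternatives between 0.00374 and 0.187). ACTN3, the alpha-actinin held in the fast fibre list, went the other way, with a mean of 666 ± 154 (SD, n = 3) for LT against 147 ± 199 (SD, n = 3) for ST. Its log2 fold change was -3.43, and it was not called in either fit (limma, adjusted p = 0.146, with the block 0.0527). The call of ACTN2 was lost when any library but ST replicate 2 was left out. MYOT was called with the block alone (log2 fold change 1.11, limma, adjusted p = 0.0730 without and 0.0359 with the block). The median of the 7 was 0.83. DES, whose desmin is the main client of CRYAB in muscle, had FPKM of 1780, 1229 and 2855 in LT against 3012, 2358 and 3800 in ST, a log2 fold change of 0.70 (limma, adjusted p = 0.383).

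**Figure D5:**
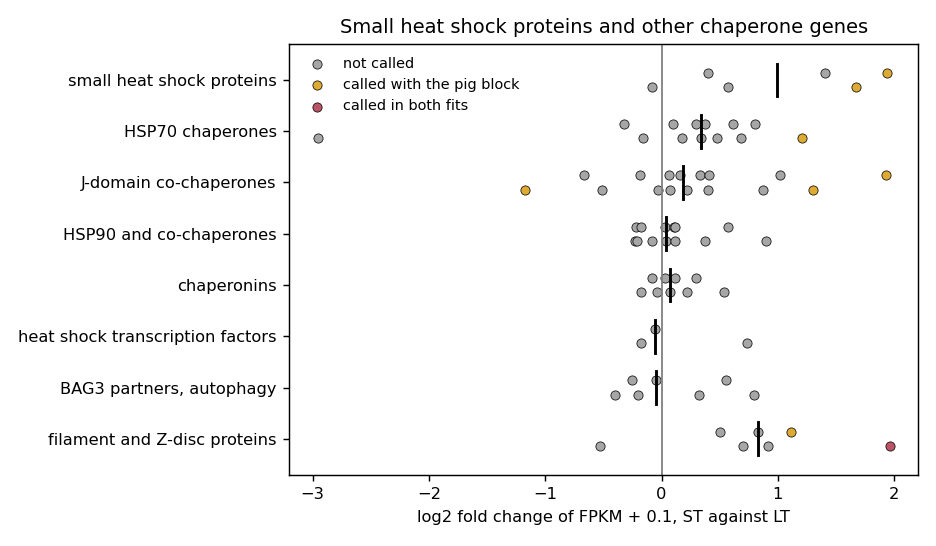
Log2 fold change of FPKM + 0.1 between ST and LT for the small heat shock protein genes and 7 lists of related genes, 1 point per gene tested, with the list median as a black line. Yellow points were called only with the pig as a block, and the red point, ACTN2, was called in both fits. The median is 0.99 for the small heat shock protein genes and between -0.05 and 0.83 for the other lists.

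Other markers of the tissue were read beside these values. The endothelial markers, 4 genes, summed to between 39.8 and 63.6 FPKM per LT library and between 105 and 149 per ST library. Of the 4, 2 were called without the block, PECAM1 and CDH5, and 3 with it, all higher in ST. The 5 smooth muscle markers, a tissue that also holds HSPB6, summed to 118 to 148 FPKM in LT and 171 to 218 in ST. None was called without the block, and SMTN was called with it, higher in ST (log2 fold change 1.04, limma, adjusted p = 0.0248). Of 6 adipocyte markers, LPL was called in both fits, higher in ST at a log2 fold change of 1.41. The other 5 were not called and had values below 0, from -1.11 for PLIN1 to -0.33 for FABP4, and the median of the 6 was -0.82. No gene of the fibroblast, leukocyte, Schwann, satellite cell and erythrocyte lists was called in either fit. The part of vessels in the small heat shock protein values was not tested.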

How the data were processed

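RNA of LT and ST from 3 Min pigs was depleted of rRNA and made into 6 libraries with a strand-keeping kit. SOAPnuke (read filtering), HISAT2 (mapping to the pig genome Sscrofa11.1) and StringTie (quantification) were used by the authors, who deposited an FPKM value for each of 72511 transcripts per library. FPKM depends on the transcript models and carries no counts, so the depth behind a value is unknown and no counting interval was given.

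FPKM was summed per gene ID, with symbols from an Ensembl table that matched 14692 of 36050 IDs. The comparison of ST against LT used limma 3.58.1 (R 4.3.3) and a variance trend, on log2(FPKM + 0.1), over genes with mRNA transcripts, annotated or not, and FPKM above 0.1 in at least 1 library. HSPB7, of type lncRNA, was added to that table. Benjamini-Hochberg adjustment covered 19680 genes. Transcripts were fitted likewise. The script was tested on simulated data. Plots used matplotlib 3.10.9 in Python 3.11.15.

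The study's methods take LT and ST from the same pigs, and same-numbered libraries in the labels were read as 1 pig. Deviations from the muscle means correlated at 0.301, 0.276 and 0.303 within pigs 1, 2 and 3 and at -0.147 on average between pigs. The value between pigs is not separate evidence, since deviations from a mean of 3 libraries add up to 0 for each gene. The study names no block, so the fit with the pig as a block is an alternative. The paper does give sampling of both muscles from the same pig as a way to avoid individual differences, and the fit without the block leaves that pairing unused. P-values without the block weigh the difference of the means against the spread of libraries within muscles, pooled over both muscles and moderated over all genes tested. Those with the block weigh it against the spread of the ST to LT difference over the 3 pigs, moderated likewise.

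The members and lists were chosen with earlier results of these data known. Named genes were all members and their transcripts, called genes of each list or else its 2 genes with the smallest p, and the 5 genes most like CRYAB. BAG3, DES, DNAJB1, FKBP5, HSP90AB1, HSPA6, HSPA8, HSPH1 and MYOT among the lists, and DNAJA4 as a list gene, were named after their values were seen. Alternatives were other pseudocounts, filters, scalings and gene summaries, a fit without trend, the pig block, leaving out each library and, added after the data were seen, a fit over all gene IDs.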

Additional observations from a re-analysis of the deposited data

How the results depend on the processing

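With the pig as a block, the number of small heat shock protein genes called moved from 0 to 2, with HSPB6 at a log2 fold change of 1.94 and HSPB7 at 1.68. The genes called in the chaperone lists, filament and Z-disc genes included, moved from 1 to 6. The genes called over all genes moved from 114 (0.579%) to 839 (4.26%). The block changed the call of no other small heat shock protein gene. When FPKM was rescaled to nuclear transcripts, 1 small heat shock protein gene (HSPB6, 2.05), 3 chaperone list genes and 328 genes in all were called, and HSPB8 turned to 0.026. With the most abundant transcript alone, HSPB8 turned to 0.012, and 0 chaperone list genes and 53 genes were called. No chaperone list gene was called without a filter on FPKM, after quantile normalization or without a variance trend, where 6, 62 and 31 genes in all were called. The higher share of all calls was 71.1% in the comparison as reported and 53.2% after quantile normalization, 83.5% after nuclear rescaling, 54.8% without a trend, 60.4% with the most abundant transcript and 16.7% without a filter.

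Leaving out 1 library at a time gave log2 fold changes from 1.06 to 2.09 for CRYAB, 0.12 to 0.89 for HSPB1, 0.41 to 0.76 for HSPB3, 1.64 to 2.46 for HSPB6, 1.33 to 2.24 for HSPB7 and -0.56 to 0.21 for HSPB8. It gave 0 to 1 small heat shock protein genes, 0 to 5 chaperone list genes and 11 to 1006 genes called. The 1 was HSPB6 without ST replicate 2, without which 5 chaperone list genes and 1006 genes were called, against 0 and 11 to 23 without any of the other libraries. HSPB8 changed sign without LT replicate 3 and without ST replicates 1 or 3. The cause of these changes was not tested. Other pseudocounts, FPKM above 1, annotated transcripts alone and all gene IDs in the fit changed no call of the 6 genes. With 3 libraries per muscle and no counts, a difference as small as that of HSPB1 or HSPB8 could not be resolved.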

Other observations

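Of the 68 tested genes of the chaperone lists, 10 (14.7%) had their highest level in pig 2 in both muscles, as did 1686 (8.57%) of all genes tested and 0 of the 6 small heat shock protein genes. The pattern and the genes named here were picked after their values were seen, and it was not tested. HSPA6, a strictly inducible HSP70, had FPKM of 26.2, 149 and 12.7 in LT and 0.658, 111 and 1.19 in ST of pigs 1, 2 and 3. HSPH1, a nucleotide exchange factor of HSP70, had 18.1, 76.9 and 28.8 in LT and 12.8, 61.5 and 25.99 in ST. DNAJB1, an inducible J-domain partner of HSP70, had 70.3, 254 and 75.0 in LT and 28.9, 76.6 and 52.6 in ST. HSPA8, the constitutive HSP70, had 646, 921 and 838 in LT and 438, 1122 and 724 in ST. Other chaperone genes had another order. HSP90AB1, a cytosolic HSP90, had 87.3, 98.3 and 162 in LT and 102, 107 and 160.5 in ST, highest in pig 3 in both muscles, as was HSPD1. In ST, CRYAB, HSPB6 and HSPB7 were highest in pig 3, whereas HSPB1, HSPB3 and HSPB8 were highest in pig 2.

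FKBP5, a co-chaperone of HSP90 whose gene is a known target of glucocorticoids, had FPKM of 3.44, 25.9 and 28.1 in LT and 3.62, 25.3 and 17.4 in ST, with the low values in pig 1. It was also picked after its values were seen.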
